A study of Homo sapiens with 4 samples.

Results

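The TRIM genes encode a family of ubiquitin ligases, and their mRNA was followed here in HT-29 cells, a human colorectal adenocarcinoma line, that were made to express a family member they otherwise lack. Members were all genes of the deposited transcript tables whose symbol is TRIM followed by a number, with at most 1 letter after it, and their transcripts were summed per gene. This gave 72 genes with 167 transcripts, out of 27685 genes and 63714 transcripts, and 71 members other than TRIM40 itself. The study compared HT-29 cells carrying the empty control vector with HT-29 cells that stably expressed TRIM40 with an N-terminal Myc tag (Myc-TRIM40) from a retroviral pMSCV vector under puromycin selection. The parental line was labelled wild type, and none of the cells received a treatment. Each condition had 2 libraries of poly(A) RNA, 1 from each of 2 independent experiments, so that every experiment held a control vector and a Myc-TRIM40 library. Puromycin selection and the vector backbone were shared by both conditions, and whether the cells were a pool or a single clone is not given in the sources used here.

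TRIM proteins share a tripartite motif of a RING finger, B-box domains and a coiled coil, followed by a C-terminal domain that differs between subfamilies. The RING finger recruits an E2 enzyme, which carries the ubiquitin that the TRIM protein passes to its substrate. The coiled coil makes the proteins dimers. Many members act in innate immunity, and a part of the family is itself switched on by interferon, which acts through an interferon-stimulated response element (ISRE) in their promoters. TRIM40 lies among a cluster of TRIM genes beside the HLA genes on the short arm of chromosome 6 and is described as a gene of the gut. The study also named TRIM31, a ligase abundant in intestine, and TRIM69 beside it.

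Libraries held between 60954602 and 67424698 reads summed over genes, and edgeR tested 14868 genes. Epithelial identity was clear in all 4 libraries, where KRT8, the type II keratin of simple epithelia, had 3355 to 4435 FPKM (fragments per kilobase of transcript, scaled to the library total). All 11 epithelial markers had reads, but CDX1, with 36 to 46 reads, and CDH17, with 52 to 105, were low. COL1A2, COL3A1 and DCN of fibroblasts, CD3E of T cells, CDH5 of endothelium and MYH2 of muscle had 0 reads in every library, and PTPRC, the pan-leukocyte antigen, had at most 4. Other markers of those lists were detected, with 123 to 352 reads for COL1A1 and 36 to 90 for LUM of fibroblasts, 17 to 31 for PECAM1 of endothelium, and 148 to 297 for CD14 and 751 to 1379 for CD68 of macrophages. The leukocyte list summed to 8.43 and 14.2 FPKM in control vector and Myc-TRIM40 of experiment 1 and to 8.48 and 9.25 FPKM in experiment 2, the fibroblast list to between 0.879 and 1.36 FPKM, and their part in the results below was not tested. A property of experiment 2 touches the fold changes below. Among the 11801 genes with a mean of at least 1 FPKM, the log2 ratio of Myc-TRIM40 to control vector went up with the length of the gene's most-read transcript in experiment 2 (Spearman's rho 0.68 across genes) and hardly so in experiment 1 (rho 0.08). These correlations are across genes of the same libraries, which are not independent replicates. The TRIM genes at that level had a median length of 3453 bases, against 2863 bases over all such genes. For the lists and for the longer genes named, values of experiment 2 are therefore also given after the median ratio of genes of like length was taken off.

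The transgene was the most abundant member wherever it was expressed. TRIM40 (hg19 chr6:30103885-30116512, plus strand) had 0 reads in both control vector libraries. The Myc-TRIM40 libraries of experiments 1 and 2 held 272646 and 110665 reads. On the per-length scale this was 2086 and 827 FPKM, which ranked 13 and 79 among all genes. The labels therefore matched the expected transgene in every library. TRIM40 took 0.447% and 0.177% of all reads, and its reads, scaled by library total with edgeR's TMM factors (CPM), stood in the first experiment at 2.53 times the level of the second. Against a floor of 3 reads per control library the Myc-TRIM40 level of the first experiment was higher by at least 88493-fold and that of experiment 2 at least 36556-fold higher, where the floor covers counting error only. The adjusted p of edgeR's quasi-likelihood test, with the experiment as a block and Benjamini-Hochberg adjustment over all genes, was 3.36e-06. It was 0.0608 without the block and 0.126 with no filter on low counts, although reads were present only in the Myc-TRIM40 libraries in either case.

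TRIM40 mRNA outweighed the rest of the family put together. The FPKM of the other 71 members summed to 815.6 in control vector and 903.4 in Myc-TRIM40 libraries of experiment 1, and to 621.2 and 704.1 in experiment 2. TRIM40 alone was 2.31 times that sum in experiment 1 and 1.17 times in experiment 2. Of its 2 listed transcripts, the longer one of 2086 bases received 270992 of 272646 reads in experiment 1 and 109518 of 110665 in experiment 2. Whether reads came from the vector or from the resident gene was not tested.

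HT-29 cells expressed most of the family, at levels that spanned a wide range. Of the 71 other members, 52 had reads in some library, 48 passed the count filter and were tested, 40 had a mean of at least 1 FPKM and 18 of at least 10 FPKM. The remaining 19 had 0 reads in every library, and they included TRIM17, TRIM50, TRIM58, TRIM71 and the TRIM43, TRIM48, TRIM49, TRIM51 and TRIM64 genes. Reads were present but too few to test for TRIM9, TRIM46, TRIM63 and TRIM69.

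The highest member apart from the transgene was TRIM28, also known as KAP1, the corepressor that KRAB zinc finger proteins bring to chromatin. It had 261.0 FPKM in control vector and 235.5 FPKM in Myc-TRIM40 cells of experiment 1, and 222.8 and 199.0 FPKM in experiment 2. TRIM28 thus held between 26.1% and 35.9% of the FPKM of all members other than TRIM40. Myc-TRIM40 was the lower library within each experiment, and on the CPM scale, though not in FPKM, both Myc-TRIM40 libraries lay below both controls. The fitted log2 fold change of -0.24 ± 0.19 (standard error, SE, n = 2 libraries per condition) did not pass the edgeR test (adjusted p = 0.888). Second was TRIM31, with 91.5 and 116.6 FPKM in experiment 1 and 53.9 and 61.7 FPKM in experiment 2 (log2 fold change 0.19 ± 0.22, edgeR adjusted p = 0.900). Experiments differed more than conditions for TRIM31, since both libraries of experiment 1 exceeded both of experiment 2. A TRIM31 antisense gene overlaps it and had 19 to 67 reads, and the counting is not stated to use strand.

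After them came TRIM44 and TRIM29, which both lack a RING finger, then TRIM25, TRIM8, TRIM26 and TRIM27. TRIM44, a deubiquitinase-like member, had 43.9 and 44.8 FPKM in experiment 1 and 25.9 and 43.2 FPKM in experiment 2. TRIM29, a regulator of p53 and of cytosolic DNA and RNA sensing, had 47.3 and 47.4 FPKM in experiment 1 and 25.9 and 35.9 FPKM in experiment 2. For both genes the libraries of experiment 1 were alike and the control of experiment 2 stood lowest. In experiment 2 the log2 ratio of FPKM + 1 was 0.71 for TRIM44 and 0.46 for TRIM29, and with the length trend taken off it was 0.29 and 0.34. TRIM8, a binding partner of SOCS1, ranged from 23.7 to 30.2 FPKM and TRIM27 from 23.4 to 27.2 FPKM over the 4 libraries, with no separation of the conditions. In the control libraries only 2 of the 39 pairs of neighbours in the order of levels did not overlap, TRIM28 over TRIM31 and TRIM31 over TRIM29, so the order below TRIM31 was not resolved by 2 libraries. Over the 40 members, FPKM of the 2 control libraries correlated with a Spearman's rho of 0.90 across genes.

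**Figure D1:**
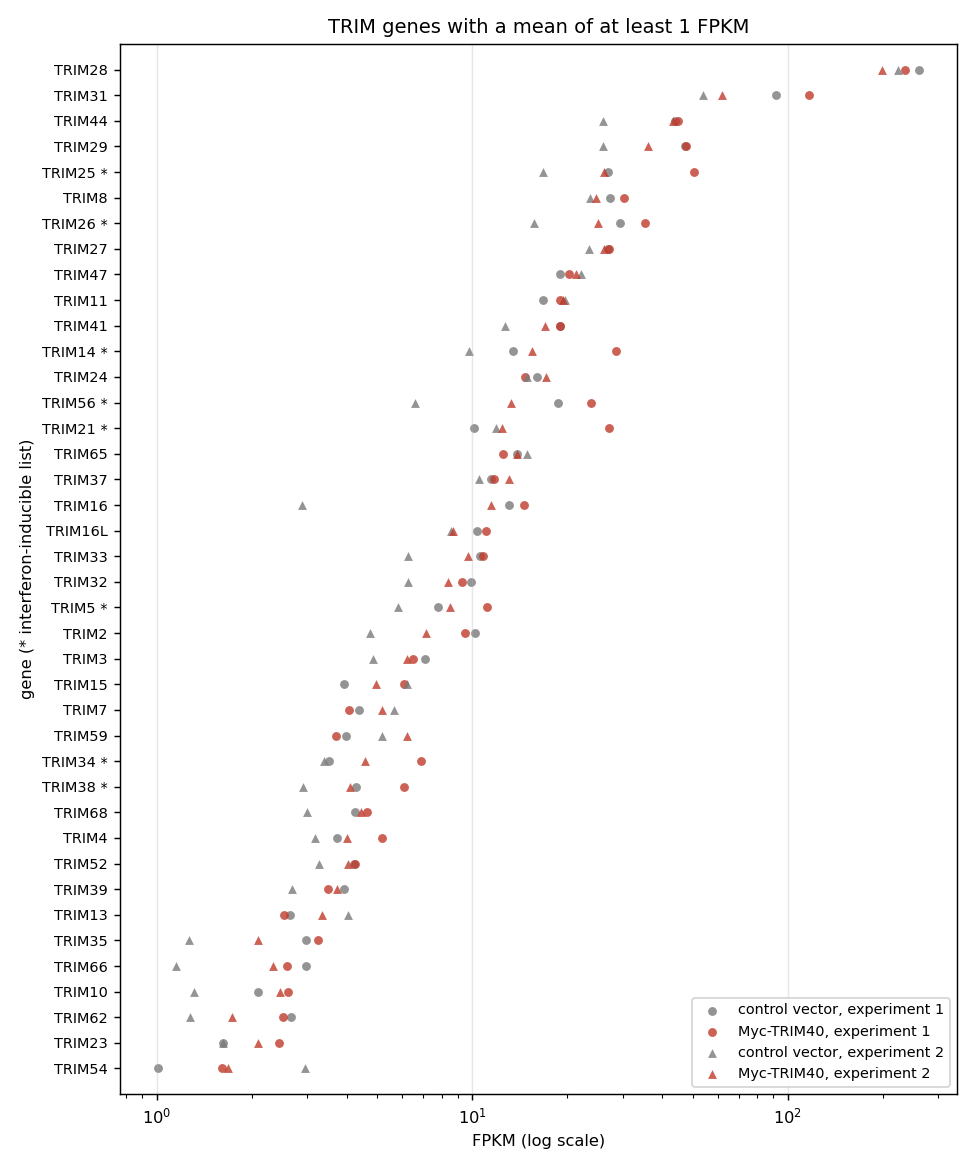
FPKM on a log scale (x axis) of the 40 TRIM genes other than TRIM40 with a mean of at least 1 FPKM (y axis), with 1 point per library: grey for control vector, red for Myc-TRIM40, circles for experiment 1 and triangles for experiment 2. TRIM28 stood apart at 199 to 261 FPKM, and grey triangles of experiment 2 were often the lowest point of a row.

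With Myc-TRIM40, no other TRIM gene passed the test after adjustment. Most of the members with the smallest unadjusted p were interferon-inducible ones. By edgeR with Benjamini-Hochberg adjustment 0 of the 48 tested members were called. The edgeR background over all genes was 0.0404% called higher and 0.0202% called lower. DESeq2 and limma also called 0 of these members, and over all 14868 genes they called 54 and 3. At an unadjusted p under 0.05, 7 of 48 members (14.6%) were higher, against 3.41% of all genes, and 0 were lower, against 1.13% of all genes. These 7 were TRIM22, TRIM14, TRIM25, TRIM16, TRIM56, TRIM34 and TRIM5, and 6 of them are on the list of interferon-inducible members. TRIM22, with 0 and 7 reads in the controls, passed the count filter only through its Myc-TRIM40 libraries, so its place in these counts is not independent support. With no filter on low counts 4 members were higher at that p. Without the replicate block only TRIM22 remained under 0.05. Shares of all genes at that p are not given for these other fits. The design is small. An exact permutation test of 2 against 2 libraries, which leaves out the pairing by experiment, could not give a two-sided p below 0.333.

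The family as a whole was slightly on the higher side. Fitted log2 fold changes were above 0 for 36 of the 48 members, with a median of 0.18 against 0.04 over all genes tested. Among the 40 members with at least 1 FPKM, the log2 ratio of FPKM + 1 was above 0 in both experiments for 24 (60.0%), against 34.6% of all genes at that level. It was below 0 in both for 4 (10.0%), against 20.8% of all genes. The 4 were TRIM28, TRIM65, TRIM7 and TRIM13. Both Myc-TRIM40 libraries exceeded both controls in CPM for 12 of the 48 tested members (25.0%), where the background was 11%. The reverse order held for TRIM28 and TRIM65 alone, 2 of 48 (4.17%) against 9.67% of all genes.

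Part of the excess sat in the interferon list, which was drawn up with results of these data known, and part of it moved with transcript length. Median log2 ratios of the 40 members were 0.09 in experiment 1 and 0.29 in experiment 2, where the medians of all genes at that level were 0.01 and 0.10. With the trend on transcript length taken off, they became 0.07 and 0.11, and 15 of 40 members (37.5%) were above 0 in both experiments, against 26.2% of all genes on that scale. For the 61 members outside the interferon list, 1 of 39 tested had an unadjusted p under 0.05 (2.56%, near the 3.41% of all genes), and the medians were 0.02 and 0.25 before and -0.0046 and 0.03 after the trend was taken off. Of the 32 outside the list with at least 1 FPKM, 16 (50%) were above 0 in both experiments, against 34.6% of all genes. After the trend was taken off 8 (25%) were, against 26.2%. Both Myc-TRIM40 libraries exceeded both controls in CPM for 8 of the 39 tested (20.5%), against 11% of all genes. Across the 40 members, the ratios of experiment 1 and experiment 2 had a Pearson's r of 0.06 and a Spearman's rho of 0.13, which describe genes measured in the same 4 libraries.

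**Figure D2:**
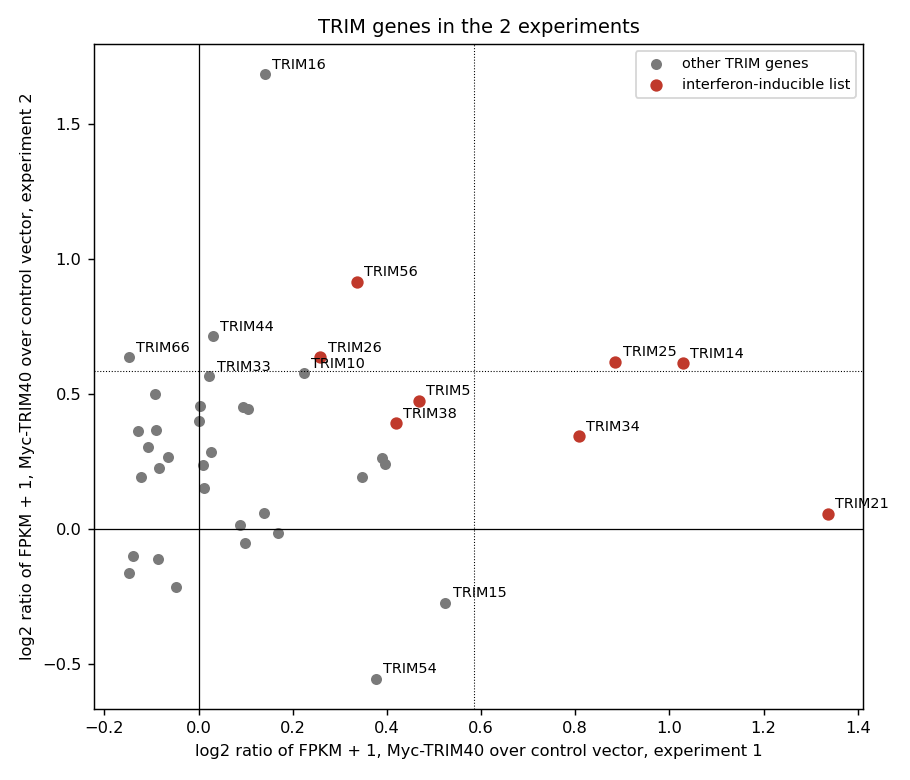
Log2 ratio of FPKM + 1, Myc-TRIM40 over control vector, in experiment 1 (x axis) and experiment 2 (y axis) for the 40 TRIM genes other than TRIM40 with a mean of at least 1 FPKM, with the interferon-inducible list in red and dotted lines at 1.5-fold. All 8 red points lie above 0 on both axes, TRIM25 and TRIM14 alone lie beyond both dotted lines, and the grey points spread mainly along the y axis.

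By a fold criterion (FPKM + 1 in Myc-TRIM40 at 1.5 times the control or more, in each experiment), 2 of the 71 members were higher (2.82%, against 0.260% of all genes) and 0 were lower (0.0506% of all genes). They were TRIM25 and TRIM14. In experiment 1 taken by itself 5 members passed 1.5-fold higher (7.04%, background 1.66%), all of them in the interferon list, and in experiment 2 by itself 7 did (9.86%, background 4.71%), of which 4 were in that list. No member passed 1.5-fold in opposite directions. The log2 ratios of TRIM25 and TRIM14 in experiment 2, 0.62 and 0.61, lay just past the threshold of 0.58. With ratios centred on the median of all genes, or with the length trend taken off, 0 members passed in both experiments.

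TRIM25, the ligase that ubiquitinates the RNA sensor RIG-I, had the highest mean FPKM of the interferon list over the 4 libraries, with TRIM26 above it in the control of experiment 1 (hg19 chr17:54965270-54991409, minus strand). It had 26.9 FPKM in control vector and 50.5 FPKM in Myc-TRIM40 cells of experiment 1, and 16.7 and 26.2 FPKM in experiment 2. Myc-TRIM40 was higher within each experiment, by 1.83-fold and 1.44-fold in CPM, yet the Myc-TRIM40 library of experiment 2 lay below the control of experiment 1. The fitted log2 fold change was 0.70 ± 0.22 (SE), with an unadjusted p of 0.0128 and an adjusted p of 0.888 by edgeR. TRIM14, an adaptor at mitochondria in RIG-I signalling that has no RING finger, lies at hg19 chr9:100846635-100881635 on the minus strand. It had 13.5 and 28.5 FPKM in experiment 1 and 9.77 and 15.5 FPKM in experiment 2, so that both Myc-TRIM40 libraries stood above both controls. Its fitted change was 0.79 ± 0.23 (unadjusted p = 0.00812, edgeR adjusted p = 0.888).

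With the trend on transcript length as an offset in edgeR, the log2 fold change of TRIM14 was 0.63 and that of TRIM25 was 0.48, and TRIM25 then no longer had an unadjusted p under 0.05. The most-read transcripts of the 2 genes have 4611 and 5744 bases. Their log2 ratios in experiment 2 went to 0.27 for TRIM14 and 0.20 for TRIM25 when the ratio of genes of like length was taken off, while those in experiment 1 stayed at 1.01 and 0.85.

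TRIM22, a nuclear antiviral ligase and one of the most strongly interferon-induced members, was almost silent in control cells (hg19 chr11:5710817-5732093, plus strand). Experiment 1 gave 0 reads in control vector and 353 in Myc-TRIM40 cells, and experiment 2 gave 7 and 32. On the per-length scale its highest level was 1.82 FPKM, so the gene stayed low in every library. Against a floor of 3 reads in the control library the first difference was at least 114.57-fold, and the second was 4.53-fold with a 95% counting interval of 1.96 to 12.2. It had the smallest unadjusted p of the family apart from TRIM40, 0.00342, and an edgeR adjusted p of 0.578. The gene passed the count filter only through its Myc-TRIM40 libraries, so that p is not independent support. In CPM with 0.1 added, its log2 ratio was 5.84 in experiment 1 and 1.51 in experiment 2.

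TRIM5, TRIM34 and TRIM6 are neighbours of TRIM22 in the cluster on the short arm of chromosome 11. TRIM5, the retroviral capsid restriction factor (hg19 chr11:5684425-5706339, minus strand), had 7.76 and 11.1 FPKM in experiment 1 and 5.83 and 8.49 FPKM in experiment 2. It was the most even member of the list, 1.45-fold and 1.38-fold higher in CPM, with both Myc-TRIM40 libraries above both controls (log2 fold change 0.50 ± 0.21, unadjusted p = 0.0432, edgeR adjusted p = 0.888). TRIM34 (hg19 chr11:5641174-5665625, plus strand), a close relative of TRIM5 that acts with it on viral capsids, had 3.50 and 6.89 FPKM in experiment 1 and 3.40 and 4.58 FPKM in experiment 2. Its CPM was 1.94-fold and 1.20-fold higher (log2 fold change 0.61 ± 0.25, unadjusted p = 0.0405, adjusted p = 0.888). TRIM34 and TRIM6 share exons with the readthrough gene TRIM6-TRIM34, so the split of reads among them is uncertain. Summed over the 3 genes, the locus went from 563 to 1102 reads with Myc-TRIM40 in experiment 1 and from 630 to 760 in the other.

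TRIM56, a ligase of the STING and double-stranded RNA sensing pathways (hg19 chr7:100728720-100735019, plus strand), had 18.6 and 23.8 FPKM in experiment 1 and 6.57 and 13.3 FPKM in experiment 2. Here the larger difference was in experiment 2, 1.85-fold against 1.25-fold in CPM (log2 fold change 0.60 ± 0.23, unadjusted p = 0.0312, edgeR adjusted p = 0.888). The conditions overlapped, because the control of experiment 1 exceeded Myc-TRIM40 of experiment 2. With the length trend taken off, the log2 ratio of FPKM + 1 in experiment 2 went from 0.92 to 0.58. TRIM21, the cytosolic Fc receptor that sends antibody-bound virus to the proteasome (hg19 chr11:4406127-4414926, minus strand), showed the opposite pattern. It had 10.1 and 27.0 FPKM in experiment 1 and 11.9 and 12.4 FPKM in experiment 2. In CPM it was 2.61-fold higher in experiment 1 and 0.956 times the control in experiment 2, so that a single library, Myc-TRIM40 of experiment 1, carried its fitted change of 0.66 ± 0.34 (unadjusted p = 0.0831).

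The other 3 members of the list had smaller or weakly measured differences. TRIM26, a ligase reported to act on IRF3, had 29.4 and 35.4 FPKM in experiment 1 and 15.7 and 25.0 FPKM in experiment 2 (log2 fold change 0.39 ± 0.22, unadjusted p = 0.111). TRIM38, a regulator of Toll-like receptor and cytokine signalling, had 4.29 and 6.07 FPKM in experiment 1 and 2.90 and 4.11 FPKM in experiment 2 (0.42 ± 0.21, unadjusted p = 0.0765). In both genes Myc-TRIM40 was the higher library within each experiment, and the conditions overlapped across experiments. For TRIM69 the control vector and Myc-TRIM40 counts were 9 and 22 in experiment 1 and 0 and 8 in experiment 2, too few to be tested.

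As a list, the 10 interferon-inducible members were on the higher side in both experiments. All 8 with at least 1 FPKM had a log2 ratio of FPKM + 1 above 0 in both experiments, against 34.6% of all genes at that level. In CPM, however, TRIM21 was below 0 in experiment 2. Of the 9 tested, 6 had an unadjusted p under 0.05, where 3.41% of all genes were higher at that p. One of the 6 was TRIM22, which passed the count filter only through its Myc-TRIM40 libraries. Without the block TRIM22 alone of the list was under 0.05. The median fitted log2 fold change was 0.61 against 0.04 over all genes. Their FPKM summed to 114.1 in control vector and 191.3 in Myc-TRIM40 cells of experiment 1, and to 72.8 and 109.8 in experiment 2. Median log2 ratios of FPKM + 1 were 0.64 in experiment 1 and 0.54 in experiment 2. After the trend on transcript length was taken off they were 0.62 and 0.29. On that scale 7 of the 8 stayed above 0 in both, against 26.2% of all genes, the exception being TRIM38 with -0.03 in experiment 2. The list was drawn up with results of these data known, so its direction is a description and not independent evidence. In bulk RNA, more cells with such transcripts and more transcript per cell cannot be told apart.

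**Figure D3:**
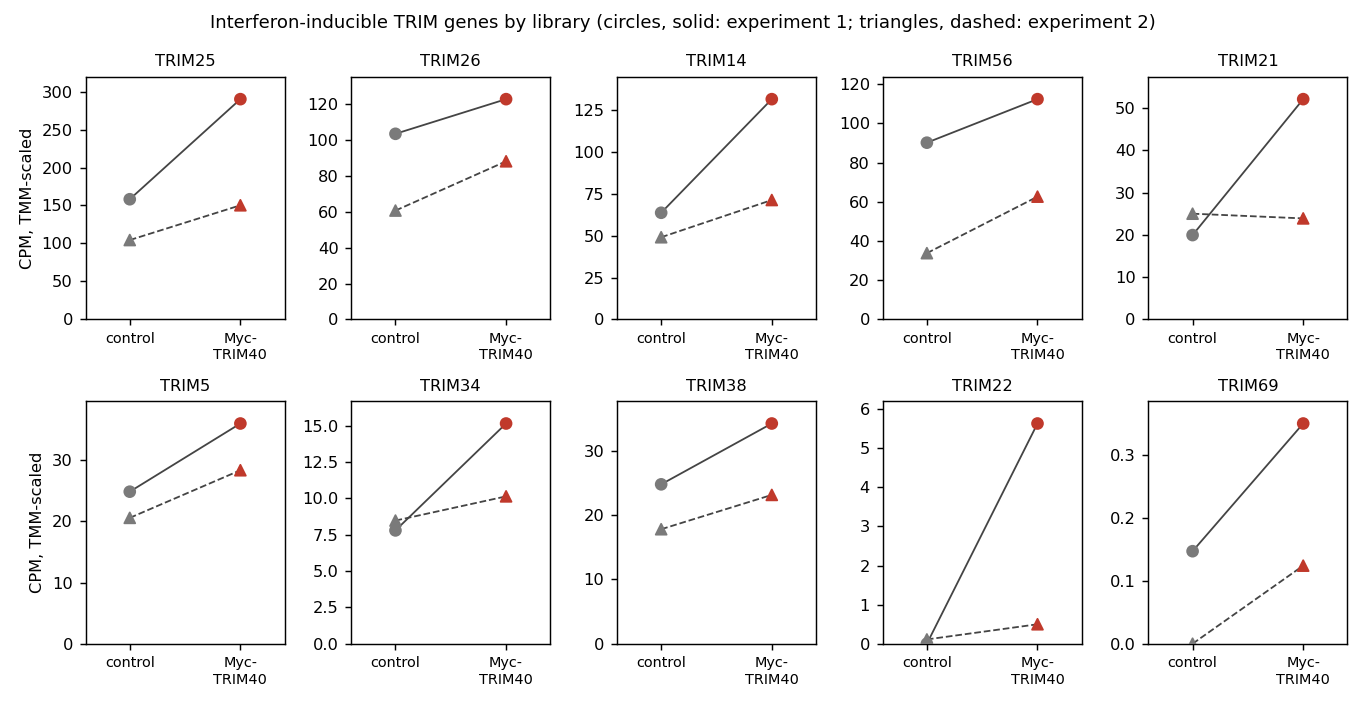
CPM with TMM scaling (y axis, from 0, own scale per panel), in control vector and Myc-TRIM40 libraries (x axis) for the 10 interferon-inducible TRIM genes, with solid lines and circles for experiment 1 and dashed lines and triangles for experiment 2. Every line goes up from control vector to Myc-TRIM40 except that of TRIM21 in experiment 2, which is nearly flat, and the fold is larger in experiment 1 for 7 of the 9 genes tested, TRIM26 and TRIM56 being the exceptions.

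**Figure D4:**
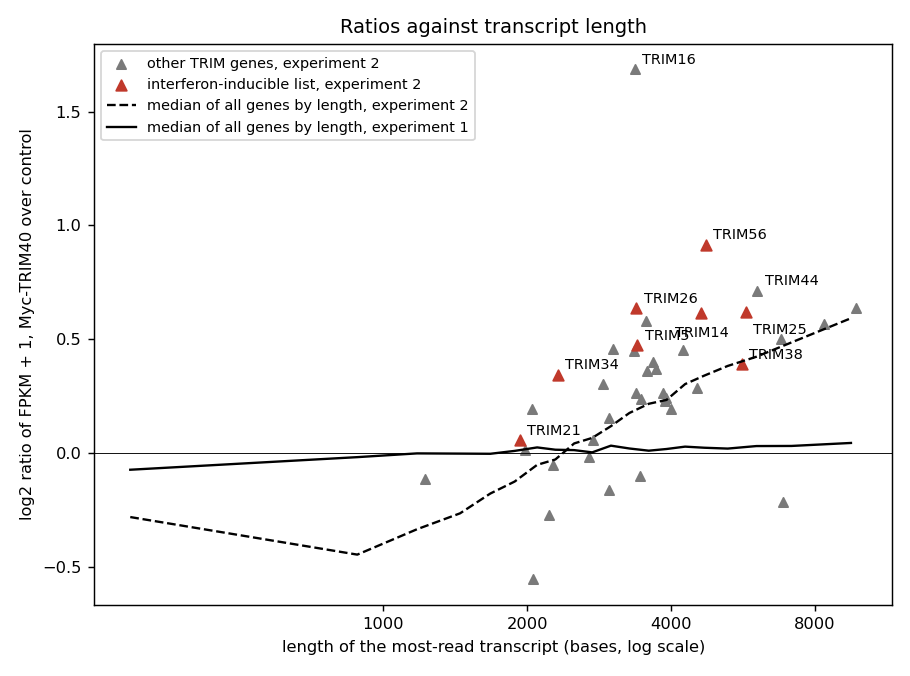
Log2 ratio of FPKM + 1, Myc-TRIM40 over control vector, in experiment 2 (y axis, triangles) against the length of the most-read transcript in bases on a log scale (x axis) for the 40 TRIM genes, with the medians of all genes in 20 length bins as a dashed line for experiment 2 and a solid line for experiment 1. The solid line stays near 0, the dashed line ends at 0.59 for the longest genes, and 7 of the 8 red points of the interferon list lie above the dashed line.

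The promoters of these genes were read for the letters to which interferon-activated factors are known to bind. RefSeq promoters (assembly GRCh38.p14, 250 bases before to 50 after each start) matched 56 of the 72 members, and TRIM22 was not among the matched. The ISRE core was searched as GAAANNGAAA on both strands, with overlapping matches allowed. It was found in 10 of the 56 member promoters and in 6 of the 9 promoters of the interferon list, against 3.65% of all 27305 promoters. The 6 belonged to TRIM5, TRIM14, TRIM21, TRIM26, TRIM34 and TRIM69, while those of TRIM25, TRIM38 and TRIM56 held no match in this window. Outside the list it was found for TRIM2, TRIM16, TRIM44 and TRIM64C. The core of the gamma-activated site, TTCNNNGAA, was found in 10 of 56 member promoters and in 0 of the 9 of the interferon list, against 7.88% of all promoters. A match is a description of the letters and not a bound site.

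The 250 bases before the start are shown for 4 genes of the list, in the direction of the gene from 5′ to 3′, to let the position of the match be compared. They are chr9:98119223-98119472 on the minus strand for TRIM14, chr11:5685075-5685324 on the minus strand for TRIM5, chr11:5624751-5625000 on the plus strand for TRIM34 and chr6:30213407-30213656 on the minus strand for TRIM26, all in GRCh38.p14. Capitals mark the ISRE core, which reads in the reverse direction in all 4.
TRIM14: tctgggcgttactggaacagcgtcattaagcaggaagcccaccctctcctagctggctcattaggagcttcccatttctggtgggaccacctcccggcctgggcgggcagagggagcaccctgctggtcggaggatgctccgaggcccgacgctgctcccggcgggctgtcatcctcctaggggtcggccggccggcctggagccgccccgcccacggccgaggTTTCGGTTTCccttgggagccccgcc
TRIM5: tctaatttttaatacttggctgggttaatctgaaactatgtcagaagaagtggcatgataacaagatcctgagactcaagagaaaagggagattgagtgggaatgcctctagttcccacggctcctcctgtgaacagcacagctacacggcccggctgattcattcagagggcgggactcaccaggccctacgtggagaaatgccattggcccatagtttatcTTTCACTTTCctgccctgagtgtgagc
TRIM34: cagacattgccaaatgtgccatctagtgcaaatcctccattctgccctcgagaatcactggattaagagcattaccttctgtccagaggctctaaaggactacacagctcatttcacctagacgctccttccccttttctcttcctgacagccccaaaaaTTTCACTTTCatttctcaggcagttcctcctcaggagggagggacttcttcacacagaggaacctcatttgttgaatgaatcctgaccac
TRIM26: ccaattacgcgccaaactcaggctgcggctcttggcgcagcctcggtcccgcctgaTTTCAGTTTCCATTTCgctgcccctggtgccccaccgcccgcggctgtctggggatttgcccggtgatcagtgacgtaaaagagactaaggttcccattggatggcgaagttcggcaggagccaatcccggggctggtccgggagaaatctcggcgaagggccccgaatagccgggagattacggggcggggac
Counting the last base before the start as -1, the match begins at -26 in TRIM14 and at -27 in TRIM5, nearly the same place, and at -90 in TRIM34. TRIM5 and TRIM34 share the same letters, TTTCACTTTC. In TRIM26 a pair of overlapping matches begins at -194 and -188. TRIM21 holds an overlapping pair after its start, at bases 18 and 24, and TRIM69 a single match at -62.

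TRIM16 was the 1 member under an unadjusted p of 0.05 that is outside the interferon list. It encodes a protein without a RING finger that takes part in the autophagy of damaged lysosomes (hg19 chr17:15531280-15587625, minus strand). It had 13.1 and 14.6 FPKM in experiment 1 and 2.88 and 11.5 FPKM in experiment 2. The control of experiment 2 was the library that stood apart, so the CPM was 1.15-fold higher in experiment 1 and 3.19-fold higher in experiment 2 (log2 fold change 0.93 ± 0.34, unadjusted p = 0.0245, edgeR adjusted p = 0.888). Its reads were also shared out differently among its transcripts. In that control library 99.0% of them were on a transcript of 3358 bases, which had 0 reads in control vector of experiment 1. That transcript took 25.0% of the reads in Myc-TRIM40 of experiment 1 and 71.6% in Myc-TRIM40 of experiment 2. TRIM16L, a shorter paralog of near-identical sequence, had counts of 1279 and 1370 in experiment 1 and of 1180 and 1103 in experiment 2, and reads of the 2 genes could have been split between them. Summed over both, 3288 and 3736 reads were counted in experiment 1 and 1850 and 3263 in experiment 2.

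The leading transcript was the same in every library for most other members. Of 28 members with several listed transcripts and at least 100 reads in every library, 21 had the same leading transcript in all 4 libraries and 7 did not, TRIM4, TRIM13, TRIM16, TRIM26, TRIM32, TRIM35 and TRIM52. For TRIM26 the split followed the experiment and not the condition. Its transcript of 3385 bases held 76.5% and 59.6% of the reads in experiment 1 and 28.1% and 33.5% in experiment 2. TRIM65 and TRIM3 kept their leading transcript, but the share of another one moved with the condition in both experiments, as was seen after their values were examined. A TRIM65 transcript of 3373 bases had 49.5% of the reads in control vector and 19.8% in Myc-TRIM40 of experiment 1, and 42.5% and 21.6% in experiment 2. A TRIM3 transcript of 3046 bases had 1.5% and 21.0% in experiment 1 and 0.208% and 31.7% in experiment 2. These shares rest on estimated counts of overlapping transcripts and were not tested.

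The TRIM genes that share the short arm of chromosome 6 with TRIM40 were examined as a group, although TRIM38 and TRIM27 lie farther from it than the rest. TRIM10, TRIM15, TRIM26, TRIM27, TRIM31, TRIM38 and TRIM39 were all tested. At an unadjusted p under 0.05, 0 were higher and 0 lower, against 3.41% and 1.13% of all genes. All 7 had a fitted log2 fold change above 0, as had 8168 of the 14868 genes tested and 36 of the 48 members. The median of the 7 was 0.19, near the 0.18 of the 48 members, against 0.04 over all genes. TRIM10, a member of erythroid cells, had 2.09 and 2.61 FPKM in experiment 1 and 1.31 and 2.45 FPKM in experiment 2, with both Myc-TRIM40 libraries above both controls (0.51 ± 0.24, unadjusted p = 0.0605). TRIM15, which is linked to focal adhesions, had 3.92 and 6.08 FPKM in experiment 1 but 6.21 and 4.96 FPKM in experiment 2. The order of its conditions was reversed, and the fitted value was 0.07 ± 0.29. Among the 7 genes of the cluster at 11p15, 3 were higher at a p under 0.05 (3.41% of all genes were), namely TRIM5, TRIM22 and TRIM34 of the interferon list. Of these TRIM22 alone was without the block, and it passed the count filter only through its Myc-TRIM40 libraries. TRIM3 and TRIM68 had fitted values of 0.06 and 0.25.

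The PHD-bromodomain, NHL and transmembrane lists had no member under an unadjusted p of 0.05 in the edgeR fit with the block. Of all genes, 3.41% were higher and 1.13% lower at that p, so with 4, 3 and 2 genes tested this absence says little. With transcript length as an offset TRIM28 was under it. The PHD-bromodomain members, TRIM24, TRIM28, TRIM33 and TRIM66, act on chromatin, and their fitted log2 fold changes ran from -0.24 for TRIM28 to 0.33 for TRIM66. TRIM66 had 2.97 and 2.58 FPKM in experiment 1 and 1.15 and 2.34 FPKM in experiment 2, and TRIM33, the SMAD4 regulator, had 10.6 and 10.8 FPKM and then 6.24 and 9.72 FPKM. Both have long transcripts, and in experiment 1 their libraries were close or in the reverse order. With the length trend taken off, the log2 ratio of FPKM + 1 in experiment 2 went from 0.64 to 0.04 for TRIM66 and from 0.57 to -0.03 for TRIM33. The NHL members TRIM2, TRIM3 and TRIM32 were all below 0 in experiment 1 and all above 0 in experiment 2. TRIM32, the ligase mutated in a limb-girdle muscular dystrophy, had 9.93 and 9.26 FPKM in experiment 1 and 6.25 and 8.35 FPKM in experiment 2. The log2 ratios in experiment 2 with the length trend taken off were 0.01 for TRIM2, 0.18 for TRIM3 and 0.15 for TRIM32. The transmembrane members TRIM13 and TRIM59 had fitted values of -0.25 and -0.00026, the first with SE 0.22 and the second with SE 0.21.

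Members of other tissues were low or silent. Of the muscle members, TRIM55 had 0 reads, TRIM63 (the atrophy ligase MuRF1) had at most 5 reads, and TRIM72 (the membrane repair protein MG53) had 10 to 28 reads. TRIM54 was the exception, with 1.01 and 1.61 FPKM in experiment 1 and 2.94 and 1.68 FPKM in experiment 2. The order of the conditions was reversed between the experiments, and the gene overlaps UCN on the other strand, which had 64 to 137 reads. The microtubule-associated members TRIM9, TRIM36, TRIM46 and TRIM67 had at most 65 reads per library, the most for TRIM36. In all, 9 tested members overlap another gene with at least 10 reads in some library.

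**Figure D5:**
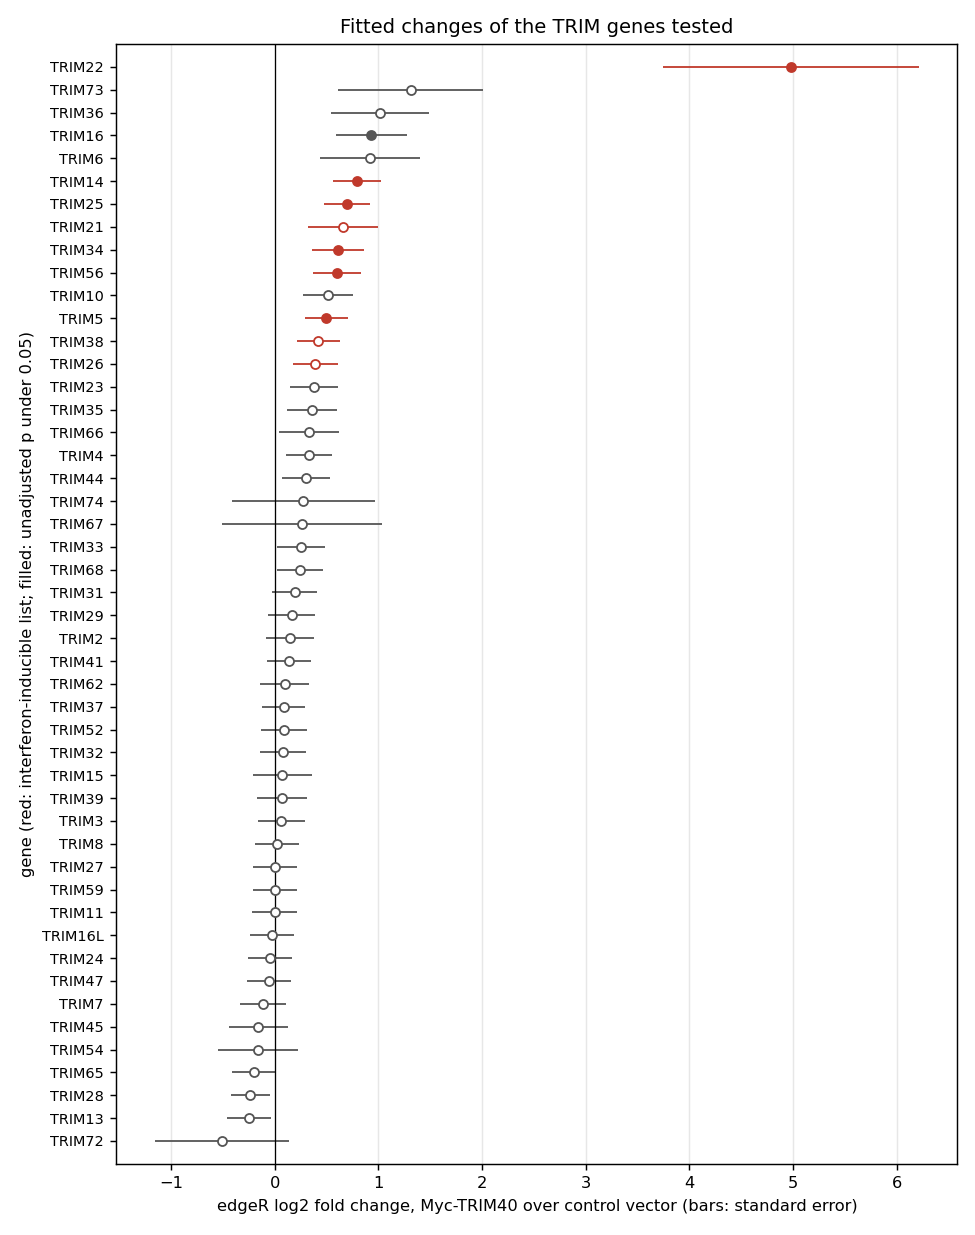
Fitted edgeR log2 fold change, Myc-TRIM40 over control vector (x axis, bars give the standard error), of the 48 TRIM genes tested other than TRIM40 (y axis), with the interferon-inducible list in red and filled points for an unadjusted p under 0.05. The 9 red points all lie above 0, and 36 of the 48 points do. TRIM22 lies far to the right because its controls had 0 and 7 reads.

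The ubiquitin pathway around the family was read from genes outside it. PML, which is a TRIM protein under another name and the core of nuclear bodies, had 9.43 and 23.8 FPKM in experiment 1 and 4.38 and 7.14 FPKM in experiment 2. It was higher within each experiment and overlapped across them (log2 fold change 1.01 ± 0.24, unadjusted p = 0.00264, edgeR adjusted p = 0.523). Among the relatives and readthrough genes of the family it was the 1 gene of 5 tested that was higher at an unadjusted p under 0.05 (20%, against 3.41% of all genes). Of 14 E2 enzymes that work with RING ligases, 1 was higher at a p under 0.05 (7.14%, against 3.41% of all genes), and the other 13, among them UBE2D3 and UBE2N, had fitted values from -0.27 to -0.05. That 1 gene was UBE2L6, the E2 enzyme of the ubiquitin-like modifier ISG15. Control vector and Myc-TRIM40 cells had 45 and 2754 reads for it in experiment 1, then 57 and 159 in experiment 2 (log2 fold change 3.73 ± 0.94, unadjusted p = 0.00376, edgeR adjusted p = 0.587). As with TRIM22, TRIM21 and TRIM14, the difference was larger in experiment 1, the experiment with the higher TRIM40 level. For TRIM56, TRIM26, TRIM16 and TRIM10 the fold in CPM was larger in experiment 2. The TRIM40 level cannot be told apart from other differences between the 2 experiments, and a relation to it was not tested.

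ROCK1, the kinase whose protein the study examined as a substrate of TRIM40, had 9.90 and 9.88 FPKM in experiment 1 and 7.07 and 10.98 FPKM in experiment 2. Its fitted log2 fold change was 0.24 ± 0.23 (unadjusted p = 0.333), with no separation of the conditions in experiment 1. Its most-read transcript has 6648 bases, and the log2 ratio of FPKM + 1 in experiment 2 went from 0.57 to 0.08 with the length trend taken off.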

How the data were processed

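RNA was measured in HT-29 cells with control vector or Myc-TRIM40, 2 libraries each. Per the submitters' processing notes, HISAT2 2.1.0, StringTie 1.3.4d and hg19 were used. TruSeq Stranded mRNA libraries were sequenced on a NovaSeq. How strand entered the counting is not given in the sources used here. For each RefSeq transcript the authors deposited an estimated count (reads, in whole numbers) and the FPKM, and for experiment 2 also TPM. TPM of experiment 1 was computed from FPKM. The other deposited values used were transcript lengths.

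Transcripts were summed per gene. The main test was edgeR 4.0.16 (glmQLFit, glmQLFTest, R 4.3.3) on counts of all 14868 genes kept by filterByExpr, with TMM scaling, the experiment as a block and p-values adjusted by Benjamini-Hochberg. Standard errors came from the fold change and the F statistic. The block follows the labels' replicate numbers and the tables, each of which holds 1 library of either condition, and same-numbered libraries deviated together (r = 0.56 across genes). There was 1 residual degree of freedom. Ratios per experiment used FPKM + 1, or CPM (TMM-scaled) with 0.1 added. On simulated data with 200 changed genes, the fit found 101 of 102 changes of 4-fold and 21 of 98 of 2-fold. Most changes of 2-fold were thus missed, and 8 calls were false. The simulation held no difference between experiments. The 2 experiments limit the precision of every fold change, and floors and intervals cover counting error only.

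Named genes were TRIM40, TRIM31 and TRIM69, members at 1.5-fold in both experiments, in opposite directions, or at an unadjusted p under 0.05, the 8 highest members, and examples of the lists. TRIM7, TRIM65, TRIM4, TRIM35, TRIM52 and members named only for lacking reads or a promoter match were added after their values were seen. The members and lists were chosen with earlier results of these data known. Alternatives were no block, DESeq2 1.42.0, limma 3.58.1 on log2(FPKM + 1), upper-quartile scaling, no filter, overlapping genes summed, other pseudocounts and thresholds, TPM, median-centred ratios and libraries left out. The corrections for transcript length were added after seeing the data. Python 3.11.15 with pandas 2.3.3, numpy 2.4.6 and scipy 1.17.1 was used for the rest.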

Additional observations from a re-analysis of the deposited data

How the results depend on the processing

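With 2 libraries per condition and 1 residual degree of freedom, differences of the size seen in most TRIM genes could not be told from the spread between experiments. With the replicate block left out, 1 TRIM gene other than TRIM40 (TRIM22) was higher at an unadjusted p under 0.05 in place of 7, and TRIM40 itself had an adjusted p of 0.0608. With no filter on low counts 4 were higher. With transcript length as an offset 5 were higher, close to the 7, and 1 was lower (TRIM28, log2 fold change -0.28), against 0 before. Shares of all genes at that p or at 1.5-fold are not given for the alternative settings. The counts of members are therefore not read against a background there. Leaving out 1 library at a time, without the block, gave between 1 and 8 higher, between 0 and 1 lower (TRIM54 without control vector experiment 1), between 0 and 1 called higher after adjustment (TRIM22 without Myc-TRIM40 experiment 2) and 0 called lower. The number higher by 1.5-fold in both experiments, 2, became 4 with a pseudocount of 0.1, 0 at 2-fold, 0 with median-centred ratios, 0 with the trend on transcript length taken off, and 5 or 7 with experiment 1 or experiment 2 alone. The median log2 ratio in experiment 2, 0.29, became 0.53 in TPM, where the median of all genes was 0.33, and 0.11 with the trend on transcript length taken off. TRIM21 had a log2 ratio of -0.07 in CPM without experiment 1. DESeq2, limma, upper-quartile scaling and the summing of overlapping genes kept these counts within 1.5 times, and no direction of a called gene was reversed. In fits of all 4 libraries, genes called over the whole table ranged from 0 without the block to 54 with DESeq2, against 9, and 1 with transcript length as an offset.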
